A study of Mus musculus with 47 samples.

Results

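The 10 genes described here are known from the newborn neurons of the hippocampal dentate gyrus and the progenitors that divide just before them: Eomes, Igfbpl1, Neurod1, Sox4, Sox11, Dcx, Draxin, Cd24a, Calb2 and Mex3a. Some of them, such as Calb2 and Neurod1, are also known from other hippocampal cells. They were chosen by name from a list of 35486 genes, and their rows of the hippocampal count table were followed across 4 groups of mice. All mice were male C57BL/6J, and each library came from the hippocampus of 1 mouse given daily intraperitoneal injections and tested for behaviour before the tissue was frozen. The groups were Young Veh (vehicle, n = 13, ages 3.75 to 5.26 months), Young PF4 (mouse platelet factor 4, a chemokine of platelets, n = 12, 4.08 to 5.03 months), Old Veh (n = 12, 17.47 to 19.97 months) and Old PF4 (n = 10, 17.4 to 20.23 months). The comparisons ask whether these genes differ with age and whether systemic PF4 moves them in old or in young mice.

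In the adult dentate gyrus, radial glia-like stem cells give rise to intermediate progenitors, which divide and become neuroblasts and then immature granule neurons. These cells switch on transcription factors in sequence, extend processes with the help of cytoskeletal proteins such as doublecortin, and later mature into granule neurons. The number of such cells is known to fall steeply with age in mice, and they are a small fraction of the cells of a whole hippocampus.

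Total reads per library ran from 2242879 to 21112908 (median 10374007), and the 8 shallowest libraries were spread over the groups (1 Young Veh, 2 Young PF4, 4 Old Veh and 1 Old PF4). Of the 10 genes, 9 had enough reads to be tested among 17778 genes, and Draxin did not. Levels are given as CPM, a depth-scaled read count, that is the reads of a gene relative to the total of its library after TMM scaling. A log2 fold change of 1 is a doubling, and a gene was called at an adjusted p below 0.05 in edgeR's quasi-likelihood test. In bulk tissue, fewer cells of a type cannot be told apart from less RNA per cell. The old libraries were numbered 1 to 23 (Old Veh 1 to 12, Old PF4 13 to 23) and the young ones 24 to 48, so that whatever this number stands for, which the labels do not say, cannot be told apart from age, nor from treatment within the old mice. Summed choroid plexus markers, a sign of adjacent tissue in the dissection, had group medians of 1941 CPM in Young Veh and 2377 CPM in Young PF4 against 47.04 CPM in Old Veh and 65.8 CPM in Old PF4, with a lowest library of 12.0 to 93.9 CPM and a highest of 3275 to 4254 CPM in each group.

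Per kilobase of exon, the 10 genes spanned a wide range of levels. The median over the 47 libraries was 26.3 CPM per kb for Calb2, 11.4 for Neurod1, 6.37 for Sox11, 4.86 for Sox4, 3.29 for Cd24a and 1.19 for Dcx. It was 0.295 CPM per kb for Mex3a, 0.198 for both Eomes and Igfbpl1, and 0.0448 for Draxin. The rare genes Eomes and Igfbpl1 rested on at most 52 and 31 reads in any library, whereas Calb2 and Neurod1, which are also known from mature hippocampal neurons, had up to 1172 and 623 reads.

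No gene of the 10 was called in any comparison. In Old Veh against Young Veh, 0 of 9 were called by edgeR, where 2.77% of all genes tested were (492 genes), and 4 of the 9 (Sox4, Calb2, Igfbpl1 and Sox11) had an unadjusted p below 0.05, all lower in Old Veh. DESeq2 also called 0, with 4 at an unadjusted p below 0.05, but gave no adjusted p for 2 of the 10, which it therefore could not call. Among all genes, 15.2% had an unadjusted p below 0.05 in this comparison. Point estimates of 8 of the 9 genes were lower in Old Veh, with a median log2 fold change of -0.21, while 54.7% of all genes were lower and their median was -0.01. The largest estimates were those of the rare genes Eomes and Igfbpl1, whose intervals were also the widest.

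**Figure D1:**
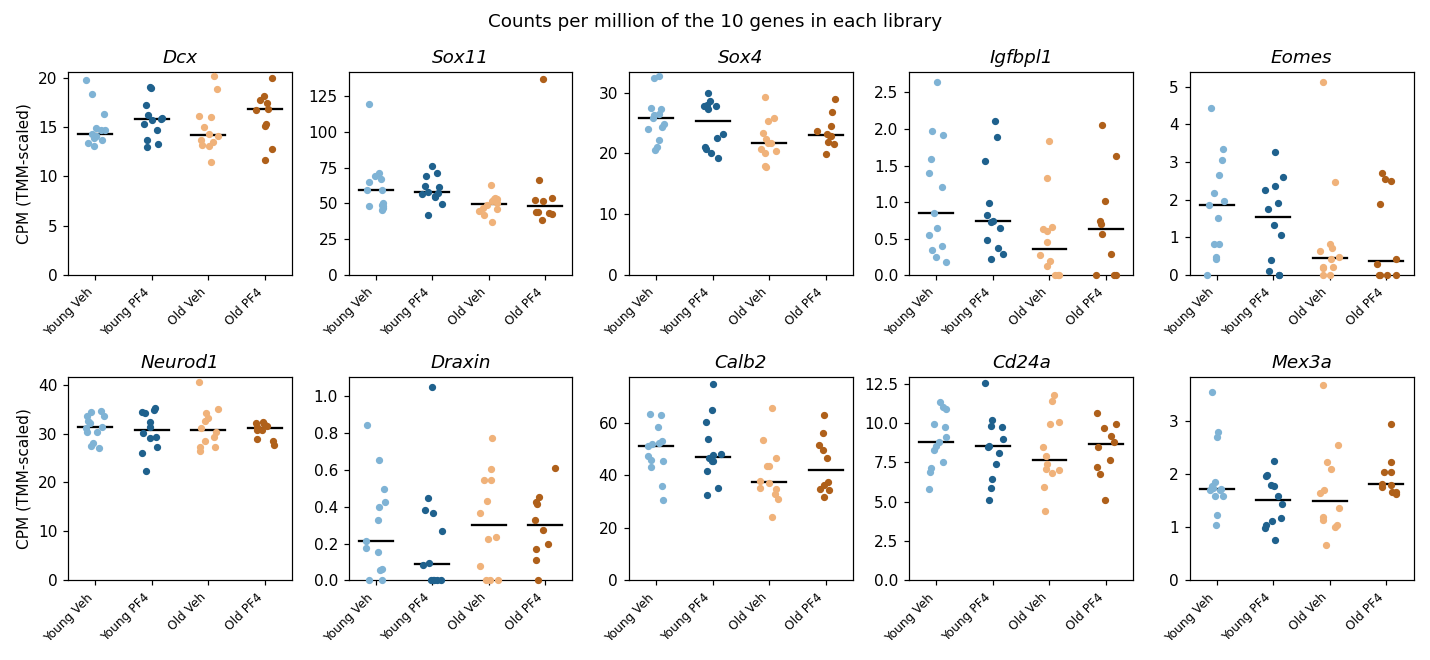
Level of each of the 10 genes (CPM, TMM-scaled, linear axis from 0) in every library, by group, with each point 1 mouse and the bar the group median. The groups overlap for every gene. Eomes and Igfbpl1 reach 0 reads in several libraries, and single libraries stand far above the rest for Sox11 (137 and 119 CPM).

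Eomes encodes Tbr2, the T-box factor that defines intermediate progenitors, and lies on chromosome 9 from 118478212 to 118486132 (GRCm38, plus strand). Its level was 0 to 4.43 CPM in Young Veh (median 1.86), 0 to 3.28 CPM in Young PF4 (median 1.55), 0 to 5.14 CPM in Old Veh (median 0.456) and 0 to 2.72 CPM in Old PF4 (median 0.360). The old medians were the lowest, but the groups overlapped, and the highest library of all was Old Veh replicate 9. Eomes had 0 reads in 9 libraries, 6 old and 3 young, including 1 of 21112908 reads, where a count of 0 allows up to 0.142 CPM. The log2 fold change was -1.21 in Old Veh against Young Veh (SE 0.617, 95% confidence interval -2.45 to 0.03, adjusted p = 0.340 by edgeR) and -0.38 in Old PF4 against Young PF4 (interval -1.64 to 0.89, adjusted p = 0.939). These age comparisons share no library.

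The 250 bases before the start of 3 genes are printed because Eomes and Sox4 varied together between mice, as given below, while Sox11, the close relative of Sox4, had no relation to either that passed the test. They come from the RefSeq promoter table (GRCm38.p6) and are written 5′ to 3′ on the strand of the gene, with matches to CAGCTG or any CANNTG, the E-box bound by Neurod1 and related factors, in capitals.
Eomes, chr9:118477939-118478188, plus strand: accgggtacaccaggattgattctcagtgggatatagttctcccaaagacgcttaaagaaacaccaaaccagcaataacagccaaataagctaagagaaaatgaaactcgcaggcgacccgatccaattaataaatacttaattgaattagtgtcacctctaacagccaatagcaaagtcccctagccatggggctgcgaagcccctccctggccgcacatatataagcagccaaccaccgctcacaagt
Sox4, chr13:28953700-28953949, minus strand: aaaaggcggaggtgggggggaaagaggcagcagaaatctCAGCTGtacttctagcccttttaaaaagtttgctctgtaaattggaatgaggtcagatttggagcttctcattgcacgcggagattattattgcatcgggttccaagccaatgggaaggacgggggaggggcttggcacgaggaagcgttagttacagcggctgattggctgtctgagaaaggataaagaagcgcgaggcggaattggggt
Sox11, chr12:27342719-27342968, minus strand: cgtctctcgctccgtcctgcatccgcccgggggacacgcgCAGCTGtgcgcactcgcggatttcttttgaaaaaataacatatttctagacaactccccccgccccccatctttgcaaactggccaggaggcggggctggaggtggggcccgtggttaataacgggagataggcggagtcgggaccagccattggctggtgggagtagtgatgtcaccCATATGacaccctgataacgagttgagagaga
Sox4 and Sox11 each held 1 CAGCTG, which also matches CANNTG, Sox11 held a second CANNTG, and Eomes held neither. CAGCTG occurred in 13% and CANNTG in 66.2% of the 32851 promoters in the table, searched over the same length on both strands. CATCTG (14.4% of promoters), AACAAT (9.42%) and ACAAAG (16.5%), the last 2 being cores bound by Sox factors, occurred in none of the 3 windows. Of the 10 genes, 7 matched the table, and Igfbpl1, Calb2 and Cd24a did not.

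Igfbpl1, an insulin-like growth factor binding protein-like gene of neuroblasts, had 0.174 to 2.65 CPM in Young Veh (median 0.844) and 0.217 to 2.10 CPM in Young PF4 (median 0.736). It had 0 to 1.83 CPM in Old Veh (median 0.360) and 0 to 2.06 CPM in Old PF4 (median 0.630). All 6 libraries with 0 reads were old, and each young library had at least 2 reads, yet the upper ends of the groups overlapped. The log2 fold change was -1.13 in Old Veh against Young Veh (SE 0.520, interval -2.18 to -0.09, unadjusted p = 0.0339 and adjusted p = 0.275 by edgeR) and -0.30 in Old PF4 against Young PF4 (interval -1.36 to 0.76, adjusted p = 0.944).

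Neurod1, a basic helix-loop-helix factor that drives the exit from division and the survival of newborn granule neurons, varied little between libraries. It ran from 27.1 to 34.6 CPM in Young Veh (median 31.4), 22.3 to 35.3 CPM in Young PF4 (median 30.8), 26.4 to 40.6 CPM in Old Veh (median 30.7) and 27.6 to 32.3 CPM in Old PF4 (median 31.04). The log2 fold change with age was 0.00 under vehicle (interval -0.12 to 0.12, adjusted p = 0.997 by edgeR) and -0.01 under PF4 (interval -0.14 to 0.12, adjusted p = 0.991). Neurod1 (14892 reads over all libraries) overlaps Cerkl on the same strand (4403 reads) and Gm26755 on the other strand (1184 reads). Strand could not separate Cerkl from Neurod1, and the libraries do not keep strand.

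Sox4 and Sox11 are SoxC factors that act early in the neuronal programme and switch on genes such as Dcx. Sox4 had 20.6 to 32.7 CPM in Young Veh (median 25.8), 19.2 to 29.9 CPM in Young PF4 (median 25.3), 17.8 to 29.4 CPM in Old Veh (median 21.8) and 19.8 to 28.98 CPM in Old PF4 (median 23.1). Old Veh held the 2 lowest libraries, and all groups overlapped. The log2 fold change in Old Veh against Young Veh was -0.21 (SE 0.079, interval -0.37 to -0.05, unadjusted p = 0.00996), and its adjusted p of 0.149 by edgeR was the smallest of the 9 genes. Between the PF4 groups it was -0.08 (interval -0.25 to 0.08, adjusted p = 0.863). Reads of the overlapping lincRNA Gm26735 (5439 against 11666 for Sox4) cannot be separated from those of Sox4 by strand.

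Sox11 had 45.6 to 119 CPM in Young Veh (median 59.6), 41.7 to 76.2 CPM in Young PF4 (median 57.7), 37.2 to 63.0 CPM in Old Veh (median 49.6) and 38.4 to 137 CPM in Old PF4 (median 48.2). The highest libraries, 1 Old PF4 (replicate 8, 137 CPM) and 1 Young Veh (replicate 4, 119 CPM), stood apart from all others, which reached 76.2 CPM. The log2 fold change was -0.31 in Old Veh against Young Veh (SE 0.146, interval -0.61 to -0.02, adjusted p = 0.286 by edgeR) and -0.19 without Young Veh replicate 4. Between the PF4 groups it was -0.04 (interval -0.36 to 0.27, adjusted p = 0.982) and -0.30 without Old PF4 replicate 8.

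The same 2 libraries had the lowest values of the length index, the mean level of long transcripts minus that of short ones on the log2 scale (-0.23 for Old PF4 replicate 8 and -0.35 for Young Veh replicate 4, ranks 46 and 47 of 47). Across the 47 libraries with group means removed, Sox11 and the length index had r = -0.486 (permutation p = 0.0042, adjusted p = 0.0336 over 40 relations) but rho = -0.132 (permutation p = 0.370), and r was -0.046 without the 2 libraries farthest from the median of the length index, so the relation rests on them. The genes whose level was most like that of Sox11 were Usp37 (r = 0.92), Tmem263 (0.90) and Inafm2 (0.90), of 15236 genes ranked over 47 libraries (looked up after the values of Sox11 were seen).

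**Figure D2:**
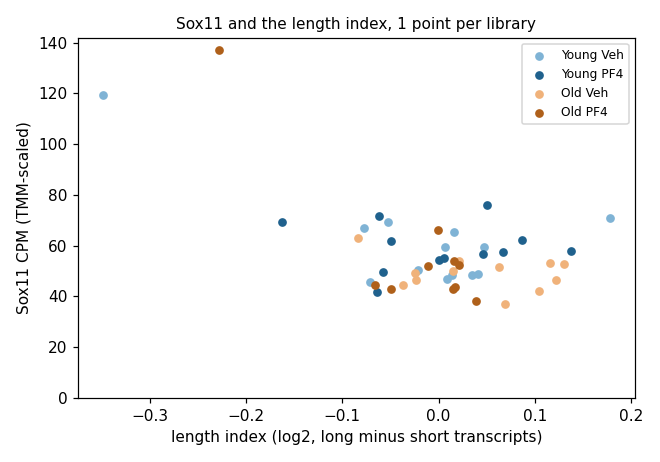
Sox11 level (CPM, linear axis from 0) against the length index of each library (log2 units), 1 point per library coloured by group. The Old PF4 library at 137 CPM and the Young Veh library at 119 CPM have the lowest length indices, and r is -0.046 without the 2 libraries farthest from the median.

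Dcx, which encodes the microtubule-binding protein doublecortin and is the usual marker of immature granule neurons, lies on chromosome X from 143855842 to 143933311 (GRCm38, minus strand). It did not differ detectably between any groups. Its level was 13.1 to 19.7 CPM in Young Veh (median 14.3), 12.9 to 19.1 CPM in Young PF4 (median 15.8), 11.4 to 20.2 CPM in Old Veh (median 14.2) and 11.7 to 20.0 CPM in Old PF4 (median 16.8). The lowest and the highest libraries of all were both Old Veh. The log2 fold change with age was -0.01 under vehicle (SE 0.082, interval -0.17 to 0.16, adjusted p = 0.989 by edgeR) and 0.03 under PF4 (interval -0.15 to 0.20, adjusted p = 0.977). Dcx rested on 34 to 375 reads per library, and its intervals in the age comparisons were narrower than those of the rare genes Eomes and Igfbpl1.

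The later markers gave the following values. Calb2, calretinin, is known from postmitotic immature granule neurons and also from interneurons and mossy cells. It had 30.6 to 63.3 CPM in Young Veh (median 51.1), 32.6 to 75.0 CPM in Young PF4 (median 47.1), 24.2 to 65.7 CPM in Old Veh (median 37.6) and 31.7 to 63.1 CPM in Old PF4 (median 42.1). The old medians were the lower ones and the groups overlapped, with a log2 fold change of -0.29 in Old Veh against Young Veh (SE 0.126, interval -0.54 to -0.03, unadjusted p = 0.0265 and adjusted p = 0.243 by edgeR) and -0.13 in Old PF4 against Young PF4 (interval -0.40 to 0.14, adjusted p = 0.872).

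Cd24a, a glycosylated surface protein of neuroblasts that ependymal cells also carry, had medians of 8.78 CPM in Young Veh, 8.51 CPM in Young PF4, 7.61 CPM in Old Veh and 8.65 CPM in Old PF4, within a range of 4.42 to 12.5 CPM. Its log2 fold change was -0.14 in Old Veh against Young Veh (interval -0.41 to 0.12, adjusted p = 0.652 by edgeR) and 0.02 in Old PF4 against Young PF4 (interval -0.26 to 0.30, adjusted p = 0.998). Mex3a, an RNA-binding protein of progenitors, had medians of 1.71, 1.504, 1.497 and 1.80 CPM in Young Veh, Young PF4, Old Veh and Old PF4. Its log2 fold change was -0.18 in Old Veh against Young Veh (interval -0.55 to 0.20, adjusted p = 0.710) and 0.31 in Old PF4 against Young PF4 (interval -0.09 to 0.71, adjusted p = 0.728). Draxin, a secreted axon guidance protein, had 0 to 15 reads per library and 0 reads in 11 libraries (4 old, 7 young), with medians of 0.216, 0.0877, 0.3001 and 0.303 CPM in the same order. It overlaps Mad2l2 on the other strand, which held 4911 reads against 139.

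In Old PF4 against Young PF4, 0 of 9 genes were called by edgeR, where 0.332% of all genes were (59 genes). That number was 36 to 91 with each library left out in turn and 21 with the 2 groups fitted alone. None of the 9 had an unadjusted p below 0.05 (8.27% of all genes did). DESeq2 also called 0 of the 10 there. Of the 9, 6 were lower in Old PF4, with a median log2 fold change of -0.04, while 48.3% of all genes were lower.

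PF4 treatment was compared within each age. In Old PF4 against Old Veh, 0 of 9 genes were called by edgeR, where 0.0337% of all genes were (6 genes, and 0 to 20 with each library left out in turn), and 0 of 9 had an unadjusted p below 0.05 (6.20% of all genes did). DESeq2 called 0, and gave no adjusted p for 4 of the 10. Point estimates of 8 of the 9 were higher in Old PF4, with a median of 0.14 against 0.01 over all genes. Other lists lay on the same side there: 14 of 17 other immature neuron genes were higher (median 0.05), all 7 subventricular zone neuroblast genes (0.16) and 10 of 12 radial glia-like stem cell genes (0.12), with 0 called in any of the 3 lists by edgeR (2, 0 and 3 had an unadjusted p below 0.05). On the other side, 9 of 10 mature granule neuron genes (median -0.11) and 6 of 8 ependymal genes (-0.03) were lower, also with 0 called and 0 at an unadjusted p below 0.05. Their part in the values of the 9 genes was not tested. Dcx differed by 0.11 (SE 0.088, interval -0.06 to 0.29, adjusted p = 0.952), Igfbpl1 by 0.60 (interval -0.59 to 1.80, adjusted p = 0.976), Eomes by 0.50 (interval -0.91 to 1.91, adjusted p = 1.00) and Mex3a by 0.27 (interval -0.14 to 0.67, adjusted p = 0.946). The Eomes value was 0.83 without Old Veh replicate 9, whose absence took the Old Veh mean from 0.942 to 0.561 CPM, and it ran from 0.23 (without Old PF4 replicate 11) to 1.06 (without Old Veh replicate 10) with each library left out in turn. Sox11 differed by 0.22 (interval -0.09 to 0.53, adjusted p = 0.933) with Old PF4 replicate 8 and by -0.03 without it. Sox4 (0.09), Calb2 (0.14), Cd24a (0.06) and Neurod1 (-0.03) had intervals that included 0. The comparisons with Old Veh share that group, so the lower values of Old Veh against Young Veh and the higher values of Old PF4 against Old Veh are not separate evidence.

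In Young PF4 against Young Veh, 0 of 9 genes were called by edgeR, as was 0% of all genes (213 genes, 1.20%, had an unadjusted p below 0.05, none of them among the 9), and DESeq2 called 0. Point estimates of 8 of the 9 were lower in Young PF4, with a median of -0.05, while 54.3% of all genes were lower. Dcx, the 1 gene with a higher estimate, differed by 0.08 (interval -0.09 to 0.24). Sox4 differed by -0.03 (interval -0.19 to 0.12), Eomes by -0.34 (interval -1.43 to 0.76) and Igfbpl1 by -0.23 (interval -1.14 to 0.68). The difference of the PF4 effects between ages was tested as an interaction, where 0 of 9 genes and 0% of all genes were called by edgeR, 0 of 9 had an unadjusted p below 0.05 (3.98% of all genes did) and DESeq2 called 0. The estimates were 0.84 for both Eomes (interval -0.95 to 2.62) and Igfbpl1 (interval -0.66 to 2.34), 0.49 for Mex3a (interval -0.06 to 1.04, unadjusted p = 0.0806) and 0.04 for Dcx (interval -0.21 to 0.28).

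**Figure D3:**
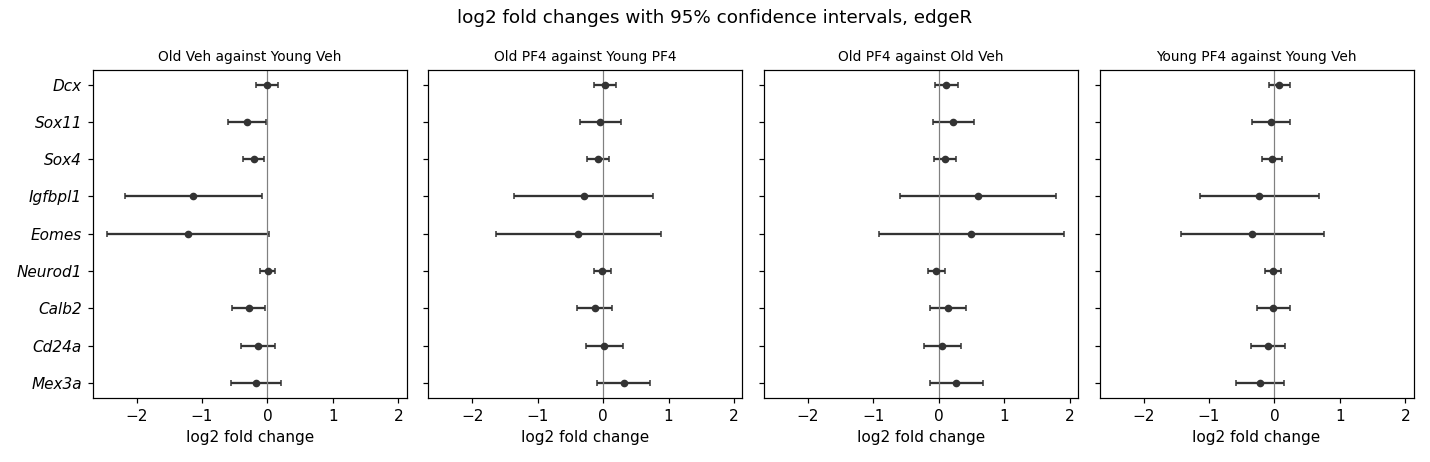
Log2 fold change (point) and 95% confidence interval (bar) of the 9 tested genes in 4 comparisons, from edgeR, with 0 marked by the vertical line. Intervals of Dcx and Neurod1 are narrow and include 0 throughout, those of Eomes and Igfbpl1 are the widest in each comparison, and 4 intervals (Sox11, Sox4, Igfbpl1 and Calb2) lie below 0 in Old Veh against Young Veh before adjustment.

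The neighbouring steps of the lineage were compared with gene lists. Of 17 other immature neuron genes tested, 0 were called by edgeR in Old Veh against Young Veh, where 2.77% of all genes were. An unadjusted p below 0.05 was reached by 6 of the 17 and by 15.2% of all genes. Lower estimates were found for 16 of 17, with a median of -0.14. Nnat, which encodes neuronatin, differed by -0.16 (adjusted p = 0.174) and Ncam1, an adhesion molecule of most neurons, by -0.01 (adjusted p = 0.956). In Old PF4 against Young PF4, 1 of the 17 was called, where 0.332% of all genes were. This gene, Nhlh2, a helix-loop-helix factor, fell by 1.03 (SE 0.233, adjusted p = 0.0277 by edgeR), with a median of 1.12 CPM in Old PF4 and 2.14 CPM in Young PF4 and overlapping groups. In Old Veh against Young Veh Nhlh2 differed by -0.27 (adjusted p = 0.578), and the interaction called no gene. The call of Nhlh2 was lost without Young PF4 replicate 11 or Old PF4 replicate 2, 10 or 11 (adjusted p = 0.0757, 0.0660, 0.0524 and 0.0542) with the 2 groups fitted alone (log2 fold change -1.03, adjusted p = 0.128) and with the library number as a covariate (-1.16, adjusted p = 1.00).

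Upstream of these genes, 2 of 12 radial glia-like stem cell genes were called in Old Veh against Young Veh, where 2.77% of all genes were. Both were lower, while 5 of the 12 had higher estimates and the median log2 fold change was -0.04. Prom1, which encodes the membrane protein prominin 1, fell by 0.37 (SE 0.083, adjusted p = 0.00518 by edgeR), from a median of 17.1 CPM (13.7 to 19.9) to 13.5 CPM (9.04 to 17.2). Id4, an inhibitor of helix-loop-helix factors that keeps stem cells quiescent, fell by 0.20 (SE 0.046, adjusted p = 0.00954), from 146 CPM (133 to 174) to 127 CPM (117 to 141). The call of Id4 was lost without the 8 shallowest libraries, with a log2 fold change of -0.19 (adjusted p = 0.0687), and with the Zic mean as a covariate, with -0.11 (adjusted p = 0.108). With the library number as a covariate neither gene was called, with -0.65 for Prom1 (adjusted p = 0.182) and -0.13 for Id4 (adjusted p = 0.869). In Old PF4 against Young PF4 neither was called (Prom1 -0.11, adjusted p = 0.802, and Id4 -0.09, adjusted p = 0.672, by edgeR), and 9 of the 12 genes had higher estimates there, with a median of 0.08. The groups overlapped for both genes, and both are also known from astrocytes or ependymal cells. Sox9, another factor of stem cells and astrocytes, differed by 0.04 (adjusted p = 0.868).

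Of 8 cell division genes tested, 1 was called in Old Veh against Young Veh, where 2.77% of all genes were. Of the 8, 4 had an unadjusted p below 0.05 (3 lower and 1 higher), as did 15.2% of all genes, and the median log2 fold change was -0.12. Top2a, the topoisomerase of dividing cells, fell by 1.76 (SE 0.322, adjusted p = 0.00045 by edgeR), from a median of 1.11 CPM in Young Veh (0.245 to 2.65) to 0.270 CPM in Old Veh (0 to 0.734). For this comparison DESeq2 gave it no adjusted p, and with the 2 groups fitted alone it fell under the count filter, so neither tests the call. In the age comparison under PF4 it differed by -1.06 (adjusted p = 0.201 by edgeR). Ccnd2, cyclin D2, the most abundant of the 8, differed by -0.21 (unadjusted p = 0.00248 and adjusted p = 0.0688 by edgeR) and Cenpf, a kinetochore protein, by -0.56 (unadjusted p = 0.0402 and adjusted p = 0.2999). Mki67, the usual marker of dividing cells and named after its values were seen, was on the other side, at 0.47 (SE 0.188, unadjusted p = 0.0160 and adjusted p = 0.191 by edgeR), with means of 1.45 CPM in Young Veh and 2.07 CPM in Old Veh. The other 4 (Pcna, Mcm2, Ccna2 and Tpx2) had intervals that included 0. Downstream, 0 of 10 mature granule neuron genes were called in Old Veh against Young Veh by edgeR (4 had an unadjusted p below 0.05, as did 15.2% of all genes), 6 with higher estimates and a median of 0.08. Among them Calb1, calbindin, differed by -0.06 (adjusted p = 0.795) and Stxbp6, a regulator of vesicle fusion, by 0.15 (adjusted p = 0.152).

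Of the lists of other cells that a hippocampal dissection can hold, 1 gene was called in Old Veh against Young Veh, where 2.77% of all genes were. Gpr17, a receptor of newly formed oligodendrocytes, fell by 0.56 (SE 0.114, adjusted p = 0.00205 by edgeR). The 10 genes of oligodendrocyte precursors and newly formed oligodendrocytes, of which it is 1, did not share this direction, with 6 higher, 4 lower and a median log2 fold change of 0.02. None was called among 8 ependymal, 10 choroid plexus, 8 interneuron, 3 Cajal-Retzius cell, 7 subventricular zone neuroblast, 5 thalamus and habenula and 5 other hippocampal neuron genes by edgeR in that comparison, with 2, 0, 1, 1, 2, 1 and 1 genes at an unadjusted p below 0.05. Estimates were nonetheless lower in Old Veh for all 8 ependymal genes (median log2 fold change -0.30), all 10 choroid plexus genes (-0.92), all 7 subventricular zone neuroblast genes (-0.13), all 3 Cajal-Retzius cell genes (-0.19) and 4 of the 5 thalamus and habenula genes (-0.26). Their part in the lower values of the immature neuron genes was not tested. Interneuron genes (5 of 8 lower, -0.07) and other hippocampal neuron genes (2 of 5 lower, 0.01) were divided.

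The genes were next followed from mouse to mouse within groups, as Pearson's r and Spearman's rho of log2 CPM after the group means were removed (n = 47, two-sided permutation tests within groups with 100000 resamples). Of the 45 pairs of the 10 genes, 5 had an adjusted p below 0.05, and 3 of them joined Eomes to another gene. Eomes and Calb2 had r = 0.69 (rho = 0.66, permutation p = 1e-05 for both, which is the smallest value that 100000 resamples allow, adjusted p = 0.00045), with r of 0.74 in Young Veh, 0.71 in Young PF4, 0.50 in Old Veh and 0.84 in Old PF4. Eomes and Igfbpl1 had r = 0.60 (rho = 0.55, permutation p = 4e-05 and 0.00026, adjusted p = 0.0009 and 0.00585) and a positive r in each group. Eomes and Sox4, whose upstream sequences are printed above, had r = 0.48 (rho = 0.49, permutation p = 0.00087 and 0.00066, adjusted p = 0.0131 and 0.0099).

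Igfbpl1 and Calb2 had r = 0.47 (rho = 0.45, permutation p = 0.00145 and 0.00259, adjusted p = 0.0163 and 0.0291). Sox11 and Cd24a had r = -0.41 (permutation p = 0.003, adjusted p = 0.027), with rho = -0.37 (permutation p = 0.0098, adjusted p = 0.072). Without the 2 libraries farthest from the median of the first gene, r was 0.61 for Eomes and Calb2, 0.56 for Eomes and Igfbpl1, 0.40 for Eomes and Sox4, 0.38 for Igfbpl1 and Calb2 and -0.38 for Sox11 and Cd24a. Without the 8 shallowest libraries the same r were 0.68, 0.60, 0.49, 0.43 and -0.48.

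No relation of Dcx passed the test. Of its 9 relations, the strongest was with Sox4, at r = 0.38 (rho = 0.38, permutation p = 0.00967 and 0.0107, adjusted p = 0.0870 and 0.0966 over the 9), with r of 0.65 in young and 0.12 in old mice and 0.39 without the 2 libraries farthest from the median of Dcx. With Eomes, r was 0.16 (permutation p = 0.311) and with Igfbpl1 it was 0.13 (permutation p = 0.434). The 10 genes most like Dcx, of 15236 ranked over 47 libraries, were Rasgef1c (r = 0.68), Mef2c (0.62), Tbr1 (0.61), Lamp5 (0.59), Pkmyt1 (0.59), Gpr26 (0.56), Gm26508 (0.56), Gm37176 (0.56), Stx1a (0.56) and Ptprd (0.55). Of these, Mef2c and Tbr1 are transcription factors known from mature excitatory neurons of the cortex, and Lamp5 is a membrane protein of cortical neurons.

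**Figure D4:**
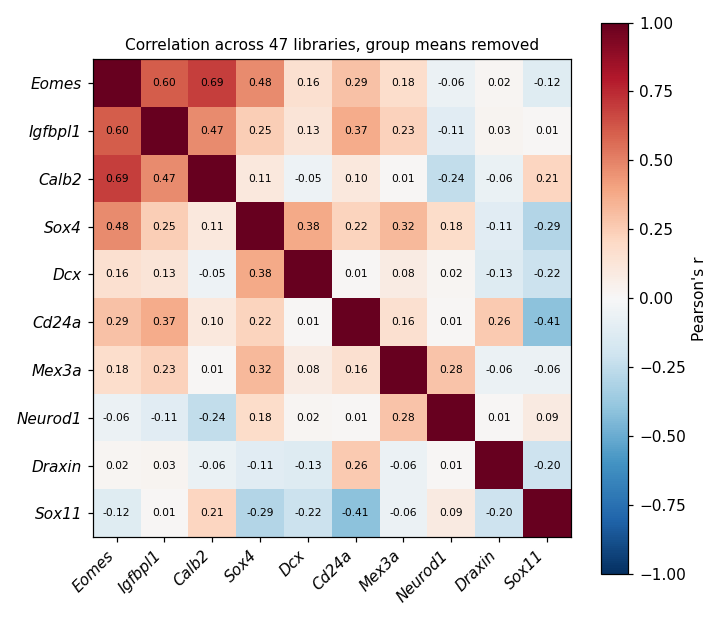
Pearson's r between each pair of the 10 genes across 47 libraries after group means were removed, with the colour scale from -1 (blue) to 1 (red) and the value in each square. Eomes has the highest values, 0.69 with Calb2, 0.60 with Igfbpl1 and 0.48 with Sox4, Igfbpl1 and Calb2 reach 0.47, Sox4 has 0.25 with Igfbpl1 and 0.11 with Calb2, and the highest value of Dcx is 0.38 with Sox4.

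The 10 genes were also set beside 4 measures of each library (40 relations, 5 with an adjusted p below 0.05): the length index and the mean log2 CPM of the mature granule neuron, choroid plexus and subventricular zone neuroblast lists. The subventricular zone neuroblast genes, such as Dlx1, Dlx2 and Sp8, belong to newborn interneurons of the olfactory system and to forebrain interneurons rather than to granule neurons. With their mean, Igfbpl1 had r = 0.69 (rho = 0.68, permutation p = 1e-05 for both, adjusted p = 0.0004), Eomes r = 0.50 (rho = 0.43, permutation p = 0.00044 and 0.00332, adjusted p = 0.0088 and 0.0332) and Calb2 r = 0.50 (rho = 0.50, permutation p = 0.00071 and 0.00052, adjusted p = 0.00947 and 0.0104). Without the 2 farthest libraries these r were 0.64, 0.42 and 0.45.

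Neurod1 and the mature granule neuron genes had r = 0.47 (permutation p = 0.00289, adjusted p = 0.0289), but rho = 0.36 did not pass (permutation p = 0.0198, adjusted p = 0.128). Their r was 0.33 without the 2 farthest libraries. By group it was 0.19 in Young Veh, 0.68 in Young PF4, 0.57 in Old Veh and -0.16 in Old PF4. Cd24a and the choroid plexus genes had r = 0.40 (permutation p = 0.00883, adjusted p = 0.0589) and rho = 0.50 (permutation p = 0.00092, adjusted p = 0.0123), with r = 0.39 without the 2 farthest libraries.

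The genes most like Eomes, looked up after its relations were seen, included Adgrd1 (r = 0.82), Zic1 (0.75), Ctxn3 (0.75), Zfp521 (0.73), Cxcl5 (0.73), Pld5 (0.72), Zic4 (0.70), Cacng5 (0.69) and Postn (0.67). Zic1, Zic2, Zic4 and Zic5 are zinc finger factors known from the septum, the olfactory bulb and the meninges, and were then handled as 1 list, so their values are a description with no test. Their mean level had r = 0.77 with Igfbpl1, 0.74 with Eomes, 0.51 with Calb2, 0.53 with Cd24a and 0.43 with Sox4, against 0.15 with Dcx, -0.18 with Neurod1 and -0.24 with Sox11. Zic1 ran from 4.61 to 26.1 CPM in Young Veh (median 11.0), 1.41 to 20.3 CPM in Young PF4 (median 11.7), 1.81 to 24.2 CPM in Old Veh (median 5.69) and 2.21 to 12.0 CPM in Old PF4 (median 7.35). The old medians were the lower ones, as for Eomes and Igfbpl1. These 4 genes had log2 fold changes of -0.51 to -0.88 in Old Veh against Young Veh, and all 4 had higher estimates in Old PF4 than in Old Veh (median 0.16).

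With the mean Zic level as a covariate, a setting added after these values were seen, the log2 fold change of Igfbpl1 in Old Veh against Young Veh was 0.02 in place of -1.13, and that of Cd24a 0.05 in place of -0.14. That of Eomes was -0.18 in place of -1.21. The Zic genes were chosen after the genes most like Eomes in these libraries were seen. A smaller change of Eomes, and of genes that vary with it, was favoured by that choice, so these values are a description only. The part of tissue outside the dentate gyrus in these values was not tested. With the library number as a covariate, which runs with age, the log2 fold changes in Old Veh against Young Veh turned to 0.20 for Eomes, 0.27 for Calb2 and 0.34 for Mex3a, and 0 of all genes were called, so that Top2a and Gpr17 also lost their calls, with log2 fold changes of -1.63 (adjusted p = 0.530) and -0.40 (adjusted p = 0.817) in place of -1.76 and -0.56.

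**Figure D5:**
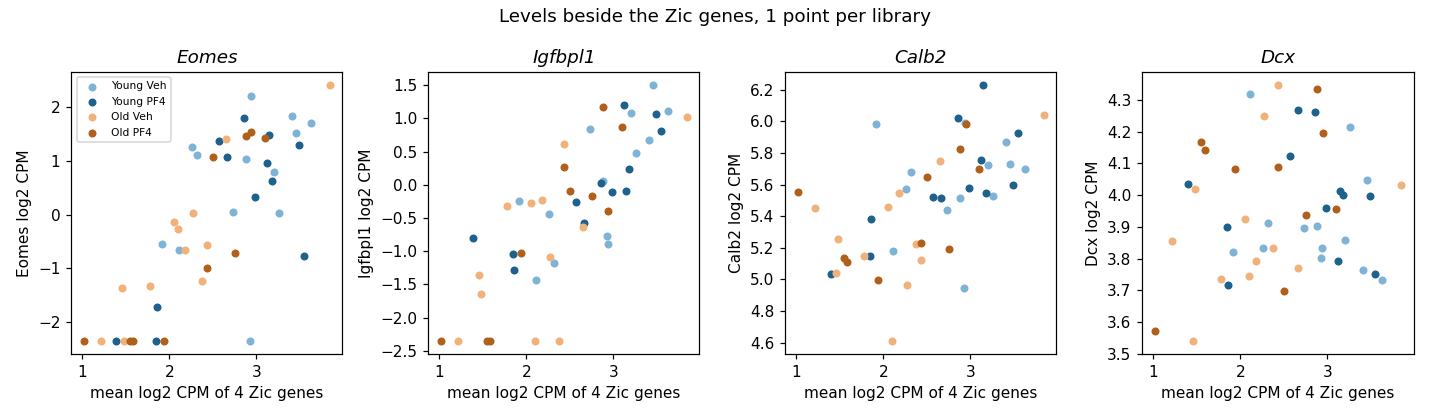
Log2 CPM of Eomes, Igfbpl1, Calb2 and Dcx against the mean log2 CPM of the 4 Zic genes, 1 point per library coloured by group, with libraries at 0 reads on the lowest row of Eomes and Igfbpl1. With group means removed, r is 0.74 for Eomes, 0.77 for Igfbpl1 and 0.15 for Dcx. For Eomes, r is 0.39 in Young Veh, 0.72 in Young PF4, 0.91 in Old Veh and 0.88 in Old PF4. The Zic genes were chosen after the genes most like Eomes were seen, so a high r with Eomes follows from that choice and is no test.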

How the data were processed

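Hippocampal RNA of 47 mice was amplified by Smart-Seq2 and sequenced from Nextera XT libraries without strand. Per the labels and the submitters' processing notes, the authors used Trim Galore 0.3.7 for trimming, STAR 2.5.3a for alignment to GRCm38, and DESeq2, and their methods excluded libraries of low coverage. The counting tool and annotation were not given in the sources used here. The deposited values are raw counts for 35486 genes, not normalized by the authors, and no row lacked a name. Groups came from the age and treatment labels, and no pair of libraries in a group agreed within counting noise (smallest chi-square per degree of freedom 1.90 over 255 pairs).

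Counts were tested with edgeR 4.0.16 (quasi-likelihood, R 4.3.3) with all 4 groups in 1 fit, TMM scaling and filterByExpr, and adjusted by Benjamini-Hochberg over 17778 genes. P-values measure the spread between these mice. DESeq2 1.42.0 was an alternative, with other normalizations, filters, covariates, a replicate block and left-out libraries. Log2 CPM used a prior count of 2. The length index contrasts genes with transcripts of at least 4594 bases and of at most 2006 bases. Lengths and overlaps came from GENCODE annotation of GRCm38. Intervals of fold changes come from the same fit and include the spread between mice. Floors are 3 reads and cover counting error only.

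The genes named are the 10 genes, called genes and the 2 most abundant genes of some lists, and the 10 genes most like Dcx, ranked among genes with a mean log2 CPM of at least 1. Genes most like Eomes and Sox11 and the Zic list were added after values were seen, as were Mki67 and Cenpf, and not every gene that the rule allows is named. Mcm2, Ccna2, Tpx2, Dlx2 and Sp8 are outside the rule and are named without values of their own. Overlapping genes are named for their reads. The members and lists were chosen with earlier results of these data known. The steps were tested on simulated data.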

Additional observations from a re-analysis of the deposited data

Results flagged for a closer look

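In Old PF4, the only group of 10 or fewer, single libraries stood apart from the others for 2 of the 10 genes by Dixon's test, which chance flags in about 1 in 20 groups. Sox11 was 137 CPM in replicate 8, against 66.3 CPM in the next library (gap over range 0.717, critical value 0.466). Mex3a was 2.94 CPM in replicate 10, against 2.22 CPM in the next (gap over range 0.547).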

How the results depend on the processing

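The count of the 10 genes called was 0 in all 5 comparisons under every alternative run, including the replicate block. A gene to which DESeq2 gave no adjusted p was counted as not called. Of 1884 recomputed fold changes, 1805 kept their direction and side of the threshold and 79 reversed, 13 of them for values of at least 0.1 on the log2 scale. The cause was not tested. Eomes, Igfbpl1 and Draxin had the lowest median CPM over the 47 libraries and at most 52, 31 and 15 reads in any library. Differences in these 3 genes may therefore go undetected. The part of depth in their spread between libraries was not tested. Replicate numbers pair no mice: of 66 same-numbered pairs of libraries across groups 21 had a correlation of deviations over 0.1 (median -0.01). Among the list genes called, Prom1, Id4, Top2a and Gpr17 kept their calls with each library left out, and Nhlh2 lost its call in 4 of 22, with a log2 fold change of -1.10 to -0.91. The replicate block called 453 of all genes in Old Veh against Young Veh in place of 492, 90 in place of 59 in Old PF4 against Young PF4 and 10 in place of 6 in Old PF4 against Old Veh, where leaving out 1 library gave 0 (without Old PF4 replicate 5, 6, 7 or 8 or Old Veh replicate 1, 2, 3, 5 or 7) to 20 (without Old Veh replicate 11), and fitting the 2 groups alone, the length index, the library number and the deeper libraries each gave 0. DESeq2's test called 627, 90 and 24 in these 3 comparisons. In Old Veh against Young Veh the library number left 0 calls, leaving out the 8 shallowest libraries left 176, and the length index gave 901.

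Log2 fold changes that reversed were as follows. With library number as a covariate, in Old Veh against Young Veh, Eomes was 0.20, Calb2 0.27 and Mex3a 0.34. Between the PF4 groups of both ages, Igfbpl1 was 0.49, Eomes 0.72, Neurod1 0.044, Calb2 0.33 and Cd24a -0.023. Within old mice, Eomes was -0.14 and Calb2 -0.12. With the Zic mean (added after the data were seen), in Old Veh against Young Veh, Dcx was 0.024, Igfbpl1 0.019, Neurod1 -0.0295 and Cd24a 0.051, and in Old PF4 against Young PF4, where 92 of all genes were called, Igfbpl1 was 0.25 and Eomes 0.13. With the mature granule neuron mean, Dcx was 0.0066 and Neurod1 -0.022 in Old Veh against Young Veh, and Neurod1 was 0.013 in Old PF4 against Young PF4, 0.022 in Old PF4 against Old Veh and 0.035 for the difference between ages. With the choroid plexus mean, Neurod1 was -0.032 in Old Veh against Young Veh and Dcx -0.0090 in Old PF4 against Young PF4. With no count filter, Neurod1 was -0.0012 in Old Veh against Young Veh. With the replicate block, Cd24a was -0.0020 in Old PF4 against Young PF4 and Calb2 0.0034 in Young PF4 against Young Veh, where DESeq2 gave 0.0016 for Calb2, the length index (added after the data were seen) 0.029 for Sox11, and the deeper libraries 0.025 for Sox4 and 0.026 for Neurod1. In the deeper libraries Dcx had r of -0.095 with Neurod1 and -0.055 with Mex3a.

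Leaving out 1 library at a time, fold changes that crossed 0 ranged as follows. Dcx ran from -0.058 to 0.036 in Old Veh against Young Veh, -0.015 to 0.074 in Old PF4 against Young PF4 and -0.010 to 0.084 for the difference between ages. Neurod1 ran from -0.037 to 0.022 in Old Veh against Young Veh, -0.041 to 0.0056 in Old PF4 against Young PF4, -0.057 to 0.0017 in Old PF4 against Old Veh, -0.039 to 0.0067 in Young PF4 against Young Veh and -0.046 to 0.019 for the difference between ages. Cd24a ran from -0.038 to 0.083 in Old PF4 against Young PF4 and -0.018 to 0.12 in Old PF4 against Old Veh, and Calb2 from -0.071 to 0.030 in Young PF4 against Young Veh. Sox11 ran from -0.30 to 0.0018 in Old PF4 against Young PF4, -0.030 to 0.26 in Old PF4 against Old Veh and -0.084 to 0.076 in Young PF4 against Young Veh, where Sox4 ran from -0.058 to 0.0043.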

Other observations

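Old Veh replicate 9 had the highest Eomes (5.14 CPM, 14 reads) and Mex3a (3.67 CPM, 10 reads) of all 47 libraries and the highest Sox4 (29.4 CPM) and Calb2 (65.7 CPM) of the old ones, and its Zic mean was also the highest (3.85 on the log2 scale). No test was made of this library, which was singled out after its values were seen.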
